A study of Mus musculus with 3 samples.

Results

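The cells described here came from ear epidermis treated with croton oil, carried the transcripts of Langerhans cells (LCs), and gave no unique molecular identifier (UMI, 1 captured molecule) of Cd207, the gene of langerin. They were 1186 cells, out of 5458 cells of the croton oil library that passed the same gate, 8241 cells of that library and 25062 cells of the series. The gate asked for at least 8000 UMIs, at most 10% mitochondrial UMIs, at least 2% of UMIs from Cd74, H2-Aa, H2-Ab1 and H2-Eb1 together, and at least 2 UMIs of Epcam. It also asked for no UMI of Ccr7, fewer than 3 UMIs of the Cd3 genes, and under 0.1% each from S100a8 with S100a9 and from Krt14, Krt5, Krt1 and Krt10. Cells that passed the gate and held 5 or more Cd207 UMIs, 1765 in the same library, were the contrast. All of these genes were read to choose the cells, so their levels are descriptions and support nothing, and "negative" refers to transcripts counted at this depth, not to langerin protein.

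LCs are the dendritic antigen-presenting cells of the epidermis, held among keratinocytes by E-cadherin (Cdh1) and maintained by TGF-beta. Langerin is a C-type lectin that binds microbial sugars and builds the Birbeck granules by which LCs are usually recognised. Croton oil is an irritant plant oil that inflames skin.

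The series held 3 libraries of magnetically enriched LCs from the ears of male CD1 mice, an outbred stock. One library came from mice given only the depilatory Nair (untreated), one from skin painted with croton oil in acetone and olive oil, and one from skin punched repeatedly with a microneedle array, both collected 48 hours after the first treatment. The labels do not give the number of animals behind a library. With 1 library per condition there was no test between conditions or cell classes: intervals are 95% exact intervals for counting error alone (Poisson for levels, binomial for shares), and treatment, animals and library cannot be told apart.

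The libraries held 6945 to 9876 cells with a median of 11623 to 16427 UMIs per cell, and 66.2% of croton oil, 82.9% of untreated and 75.5% of microneedle cells passed the gate. Few barcodes occurred in more than 1 library (13 to 32 per pair), and 6 of the 1186 cells carried such a barcode. No doublet was removed, because the automatic threshold of the caller marked 0 croton oil cells. Removing the highest scores would have taken 4.13% of the cells with Cd207 at 0 and 7.14% of the contrast.

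The share of gated cells without a Cd207 UMI was 21.7% (95% interval 20.6 to 22.8) after croton oil, 3.91% (3.40 to 4.47) after microneedles and 1.56% (1.31 to 1.86) in untreated skin. A further 17.1% of the croton oil cells held exactly 1 Cd207 UMI, 28.9% held 2 to 4 and 32.3% held 5 or more. The counts after croton oil fell away from 0 without a gap, whereas the most frequent count in the untreated library was 4 (the plot of Cd207 UMIs per gated cell). The class with Cd207 at 0 was thus the low end of a continuous range of counts, with 931 cells directly beside it at 1 UMI. Of the 125 keratinocyte-like cells of the croton oil library, 5.60% held a Cd207 UMI when thinned to 8000 UMIs. Whether free RNA or mixed droplets gave these was not tested.

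The share moved with depth, and the difference between libraries was present at each depth. Among croton oil cells of 8000 to 10000 UMIs 31% had no Cd207, and among those of 25000 UMIs or more 4.03% had none. The untreated shares in the same bins were 3.22% and 0.503%, and the microneedle shares 10.6% and 1.09%. When each cell was thinned to 8000 UMIs the shares were 31.1% after croton oil, 11.7% after microneedles and 3.66% untreated. At that common depth the mean Cd207 count was 2.41 with a variance of 10.9 after croton oil, and 4.56 with a variance of 8.78 in untreated cells.

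**Figure D1:**
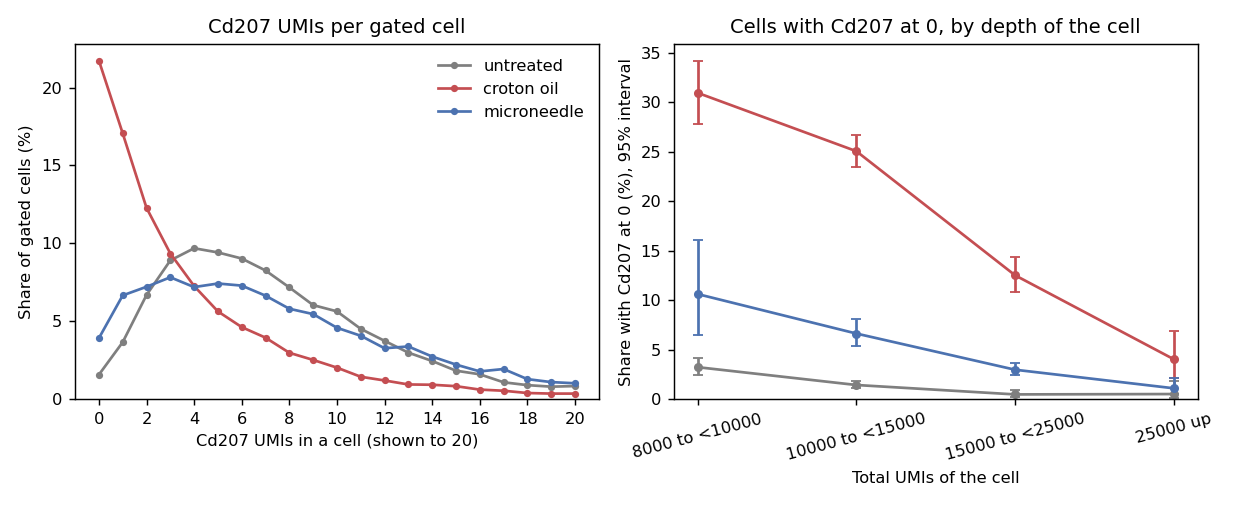
Left, share of gated cells (%) at each Cd207 UMI count up to 20 in the 3 libraries. Right, share of gated cells with Cd207 at 0 (%) by the total UMIs of the cell, with 95% exact binomial intervals; croton oil lies above both other libraries in all 4 depth bins, at 31% in the shallowest and 4.03% in the deepest.

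The cells with Cd207 at 0 were shallower than the contrast cells. Their median was 11700.5 UMIs and 3607 genes, against 14864 UMIs and 3992 genes, with median mitochondrial shares of 1.5% and 1.65%. For this reason the counts of 2-fold genes, the named genes and 8 of the gene lists were also computed in 913 cells of each class matched in total UMIs (medians 12418 and 12457), and other genes only where such a value is given. Class II share beside the depth threshold is a description only, since the rule asked for it on both sides. The 112 cells less than 1000 UMIs above the threshold held a median of 5.59%. The 70 cells less than 1000 UMIs below it that met the other criteria held 6.23%. At the Epcam threshold, 73 cells had 2 or 3 UMIs, and 27 cells with 0 or 1 were left out. At the class II threshold, 61 cells lay between 2% and 3%, and 31 cells between 1% and 2% were left out.

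The LC label was checked on genes that the rule did not use. Cdh1 stood at 273 CPM (264 to 281; a gene's share of the summed UMIs of a class, with 10000 CPM being 1%) in the cells with Cd207 at 0 and at 300 CPM (294 to 306) in the contrast. Cldn1, a tight-junction protein of LCs, stood at 462 and 618 CPM, and Ltc4s, the leukotriene C4 synthase, at 773 and 629 CPM. The transcription factors of LCs were likewise present: Id2 at 587 and 622 CPM, Runx3 at 363 and 417 CPM and Spi1, which encodes PU.1, at 424 and 512 CPM. The panleukocyte gene Ptprc stood at 356 and 314 CPM. Axl, also on the LC list, stood at 0.956 and 2.32 CPM. It was among 5 listed genes outside the rule that were under 1 CPM with Cd207 at 0. Of the 16 LC genes listed, 7 outside the rule could be compared and none differed 2-fold, beside 0.547% of all 6403 genes. Mfge8, an LC marker described below, was the lowest of the 7, just short of 2-fold (log2 -0.997). Their median difference on the log2 scale was -0.13 and changed sign at matched depth (0.01), so no direction is given. The levels of the rule genes were 980 against 1341 CPM for Epcam, 20916 against 22875 CPM for Cd74 and 11534 against 11083 CPM for H2-Aa.

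Many markers of other cells of the skin were at or near 0. The 9 monocyte markers summed to 2.59 CPM in the cells with Cd207 at 0 and 4.48 CPM in the contrast, with Ccr2, Plac8 and Vcan at 0 in the former. The 5 fibroblast markers summed to 0.137 and 0.202 CPM. The 6 T cell markers outside the rule summed to 9.49 and 5.05 CPM, of which Cd2 gave 8.26 and 4.61 CPM. Krt14, a rule gene of keratinocytes, stood at 31.3 and 30.3 CPM against 20153 CPM in the keratinocyte-like cells. Kit, shared by the melanocyte and mast cell lists, stood at 22.5 and 23.3 CPM, while Tyrp1 and Mcpt4 of those cells were at 0. Of the neutrophil list, Csf3r and Cxcr2 were under 1.5 CPM in both classes, and Il1r2, an interleukin 1 decoy receptor, stood at 2731 and 2719 CPM. Genes of other dendritic cells were in part expressed in both classes: the type 1 list summed to 508 and 514 CPM, the type 2 list to 613 and 723 CPM and the plasmacytoid list to 199 and 148 CPM. Of these, Cadm1 gave 310 and 295 CPM, Sirpa 167 and 147 CPM, and Tcf4 158 and 103 CPM. By contrast, Xcr1 and Clec9a of type 1 cells were under 1 CPM. Clec10a and Cd209a of type 2 cells were at 1.78 and 3.07 CPM, while Mgl2, another type 2 marker, stood at 275 CPM in the cells with Cd207 at 0 and 375 CPM in the contrast.

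The macrophage list gave a mixed picture. Of its 13 genes, 7 could be compared: C1qb and C1qc were past 2-fold higher with Cd207 at 0, C1qa, Adgre1 and Mrc1 were among those higher by less, and Apoe stood at 146 and 151 CPM. The list summed to 4004 CPM with Cd207 at 0 and 2471 CPM in the contrast. Other defining macrophage genes were at or near 0: Cd163 at 0, Folr2 at 0.137 CPM, Trem2 at 0.205 CPM and Lyz2 at 1.16 CPM in the cells with Cd207 at 0. The median log2 difference of the 7 genes was 0.71, and 0.43 at matched depth, beside a median of 0.05 over all 6403 genes compared, of which 0.172% were 2-fold higher. The part of other cells or of depth in these differences was not tested.

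C1q, the recognition molecule of the classical complement pathway, is made of 3 chains encoded side by side on chromosome 4. In GRCm39 coordinates C1qb lies at chr4:136606009-136613511, C1qc at chr4:136616466-136620376 and C1qa at chr4:136623223-136626161, all on the minus strand, and Cd207 lies at chr6:83648190-83654839, also on the minus strand. The bases before the starts of C1qb, which was higher where Cd207 was 0, and of Cd207 itself are given for comparison, since Spi1 was expressed in both classes. They are the 250 bases before each RefSeq start, 5′ to 3′ on the gene's strand, from RefSeq promoters in GRCm38.p6, with GAGGAA or its reverse complement TTCCTC, the core that PU.1 prefers, in capitals. The positions are chr6:83677858-83678107 for Cd207 and chr4:136886201-136886450 for C1qb.
Cd207: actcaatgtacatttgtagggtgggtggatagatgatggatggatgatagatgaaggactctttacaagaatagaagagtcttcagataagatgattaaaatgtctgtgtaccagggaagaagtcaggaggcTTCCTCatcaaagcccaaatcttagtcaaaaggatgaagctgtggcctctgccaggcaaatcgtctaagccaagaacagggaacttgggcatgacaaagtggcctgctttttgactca
C1qb: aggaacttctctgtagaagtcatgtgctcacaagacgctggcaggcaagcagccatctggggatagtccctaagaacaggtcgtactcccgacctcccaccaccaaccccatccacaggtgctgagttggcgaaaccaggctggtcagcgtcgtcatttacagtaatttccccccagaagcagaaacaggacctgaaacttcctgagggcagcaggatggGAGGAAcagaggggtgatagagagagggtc
Both windows held 1 match, and 23.3% of all 32851 windows of the same length held at least 1 on either strand. A match is a string of letters and not a measured binding site.

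C1qa was the most abundant of the 3 chains. In croton oil cells with 0, 1, 2 to 4 and 5 or more Cd207 UMIs it stood at 1852, 1746, 1614 and 1127 CPM. C1qc ran from 245 CPM (237 to 254) through 217 and 199 to 115 CPM (111 to 119), and C1qb from 88.8 CPM (84.1 to 93.8) through 85.6 and 79.3 to 39.5 CPM (37.3 to 41.8). All 3 chains were thus highest without Cd207, and most of the step lay between cells with 2 to 4 and cells with 5 or more Cd207 UMIs. At 8000 UMIs per cell, 63.6% of the cells with Cd207 at 0 held a C1qc UMI, against 38.9% of the contrast and 6.40% of keratinocyte-like cells. The log2 differences between the end classes were 0.71 for C1qa, 1.06 for C1qc and 1.08 for C1qb, and 0.43, 0.68 and 0.62 at matched depth, where none reached 2-fold.

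Fcgr2b, the inhibitory receptor for IgG, stood at 317 CPM (308 to 327) with Cd207 at 0 and at 193 CPM (188 to 198) in the contrast. Adgre1, which encodes the F4/80 antigen carried by LCs and macrophages, stood at 200 and 154 CPM. Over the 4 Cd207 classes Fcgr2b ran 317, 287, 243 and 193 CPM, the same order as the C1q chains. Of all 6403 genes compared, 27.5% rose or fell unbroken over these classes. The log2 differences of Fcgr2b and Adgre1 were 0.71 and 0.37, and 0.58 and 0.37 at matched depth.

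**Figure D2:**
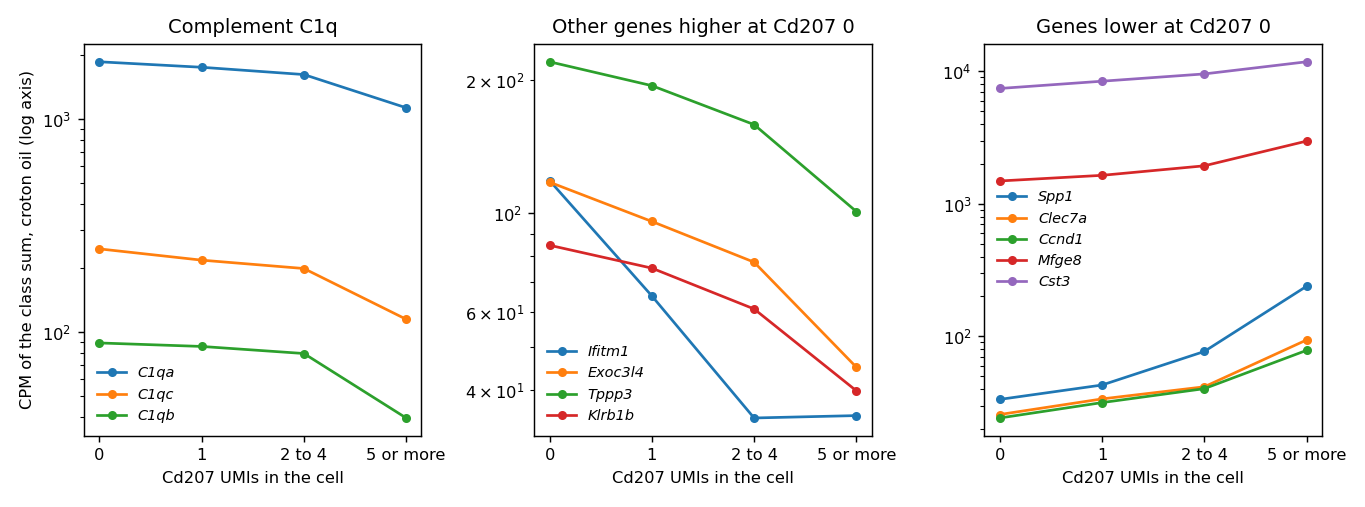
Levels (CPM of the summed cells, log axes) of 12 genes in croton oil cells grouped by Cd207 UMIs per cell (0, 1, 2 to 4, 5 or more; 1186, 931, 1576 and 1765 cells). The C1q genes are highest without Cd207, Ifitm1 stands at 118 CPM at one end and 35.0 CPM at the other, and Spp1 at 33.4 and 238 CPM.

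Over all genes the 2 classes were close. Of 6403 genes with at least 20 CPM in either class and outside the rule, 11 were at least 2-fold higher with Cd207 at 0 (0.172%) and 24 at least 2-fold lower (0.375%), in all 0.547%, on the scale log2((CPM + 5)/(CPM + 5)), which understates the differences of low genes. Some of these genes, such as Matn2 among the higher and Ccl17 among the lower, reached 20 CPM only in the class where they were high. They were compared through that class alone. With TMM scaling 7 were higher and 30 lower. At matched depth all 11 and all 24 kept their direction, and 5 and 18 of them stayed past 2-fold.

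Among the genes higher without Cd207, Ifitm1, an interferon-inducible membrane protein, showed the greatest difference (log2 1.63). It stood at 118, 65.1, 34.5 and 35.0 CPM over the 4 Cd207 classes. A minority of cells carried it: 7.25% of the cells with Cd207 at 0 held 5 or more UMIs, against 2.04% of the contrast, and the richest 10% of the former held 91.1% of its UMIs. Exoc3l4, related to the exocyst subunit Exoc3, was more evenly spread, at 118, 95.8, 77.6 and 45.0 CPM (log2 1.29). Both remained past 2-fold at matched depth (1.43 and 1.2).

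Tppp3, a tubulin-binding protein, stood at 220 CPM (212 to 227) against 101 CPM (97.3 to 105), and Klrb1b, an inhibitory lectin-like receptor, at 84.7 against 39.8 CPM. At matched depth their log2 differences were 0.90 and 0.85, under 2-fold. The matrix protein Tgfbi stood at 208 against 111 CPM, but the keratinocyte-like cells held 355 CPM of it, and the part of keratinocyte RNA in this level was not tested. Fbxo32, a ubiquitin ligase subunit (111 against 55.6 CPM), B3gnt5, a glycosyltransferase (65.7 against 32.6 CPM), Rgcc, a cell cycle regulator (229 against 121 CPM), and Adam22 (156 against 81.2 CPM) were close to 2-fold. Gm56663, a gene without a described function, stood at 54.2 against 23 CPM.

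Spp1 differed most among all genes compared. Osteopontin, its secreted product, is a matrix and cytokine-like protein. Its level was 33.4 CPM (30.5 to 36.5) with Cd207 at 0, 42.9 and 76.8 CPM in the middle classes and 238 CPM (233 to 244) in the contrast, a log2 difference of -2.66 (-2.57 at matched depth). In single cells, 1.94% with Cd207 at 0 and 17.8% of the contrast held 5 or more Spp1 UMIs.

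Also lower were a pair of lectin receptors for fungal sugars. Clec7a, which encodes Dectin-1, stood at 25.7 against 93.8 CPM (log2 -1.69), and Clec4n, which encodes Dectin-2, at 34.1 against 96.2 CPM (-1.37). Of the 22 C-type lectins listed, 8 outside the rule were compared, and these were the 2 that passed 2-fold, beside 0.375% of all genes 2-fold lower. The other lectins varied: Ly75, an endocytic receptor of dendritic cells, stood at 188 against 349 CPM, while Clec4a1 stood at 125 and 123 CPM and Mrc1, the mannose receptor, at 56.2 and 42.7 CPM. The list median was -0.23, and -0.39 at matched depth.

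Ccnd1 and a pair of genes that protect from cell death were among the lower set. Ccnd1, cyclin D1, stood at 24.2 against 78.3 CPM, Bcl2 at 33.3 against 74.2 CPM and Bcl2a1a at 19.7 against 62.0 CPM; Bcl2a1a has near-identical copies, so its counts are uncertain. Cells with any UMI of the cycling genes Mki67 or Top2a were 25.9% of those with Cd207 at 0 and 35.7% of the deeper contrast cells. Of the S phase list 4 genes were compared, all above 0 (median 0.13), beside 4010 of all 6403 genes above 0, and the 1 G2/M gene compared was at -0.14. The actin-capping gene Capg stood at 91.4 against 220 CPM, the kinase gene Rps6ka2 at 133 against 301 CPM, and Arhgef3 at 90.2 against 193 CPM. Nedd4, a ubiquitin ligase (25.5 against 56.1 CPM), Zfp366, a transcription factor of dendritic cells (46.2 against 98.6 CPM), and the olfactory receptor family gene Or5v1b (25.7 against 76.1 CPM) completed the 12 named. Keratinocyte-like cells held more Capg (277 CPM), Ccnd1 (191 CPM) and Nedd4 (184 CPM) than the cells with Cd207 at 0. Of the 12, Rps6ka2, Bcl2, Zfp366 and Nedd4 were under 2-fold at matched depth, with log2 differences of -0.83, -0.74, -0.97 and -0.84.

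**Figure D3:**
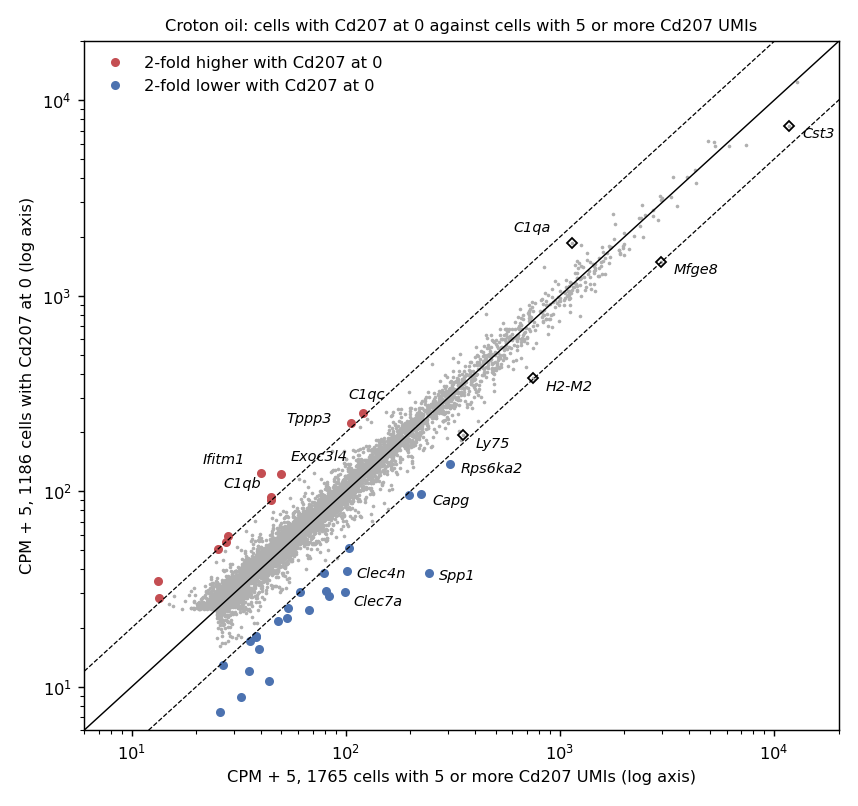
Level of each of 6403 genes (points; CPM + 5, log axes) in croton oil cells with Cd207 at 0 (vertical, 1186 cells) and with 5 or more Cd207 UMIs (horizontal, 1765 cells). Dashed lines mark 2-fold; 11 genes lie above and 24 below, and open diamonds mark 5 further genes from the text, among them Mfge8 at 1486 against 2971 CPM.

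Mfge8, Cst3 and H2-M2, abundant in both classes, were lower by less than 2-fold. Mfge8, a bridge between dying cells and phagocytes, stood at 1486 CPM (1467 to 1506) against 2971 CPM (2952 to 2991). Cst3, the protease inhibitor cystatin C, stood at 7418 against 11792 CPM, and H2-M2, a class I-like gene, at 373 against 746 CPM. Over the 4 Cd207 classes Mfge8 ran 1486, 1639, 1934 and 2971 CPM, an unbroken order. Such an order, rising or falling, was seen in 27.5% of all genes compared. Of the 7 phagocytosis and clearance genes compared, Mfge8 among them, 5 were above 0 and none passed 2-fold (median 0.06), near the 4010 of 6403 over all genes (median 0.05). At matched depth the log2 difference of H2-M2 was -1.11 and that of Mfge8 was -0.94.

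Of the 12 class II genes listed, 6 outside the rule were compared, none passed 2-fold and all 6 were lower with Cd207 at 0, with a median log2 difference of -0.31, beside 2393 of all 6403 genes below 0. Ciita, the master regulator of class II, stood at 196 against 258 CPM and H2-DMb2, a peptide-loading chaperone, at 224 against 316 CPM. H2-Ea, a class II gene that many mouse haplotypes do not express, stood at 123 and 146 CPM here and at 1.25 to 2.76 CPM in the corresponding classes of both other libraries. Of the cells with Cd207 at 0, 49.1% held an H2-Ea UMI, against 59.9% of the contrast. For this gene treatment and animals cannot be told apart.

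Among 12 lysosomal and antigen-processing genes compared, 9 were above 0 and none passed 2-fold (median 0.21), where 4010 of all 6403 genes were above 0 (median 0.05). Cathepsin S (Ctss), which trims the invariant chain, stood at 1076 against 910 CPM and Ctsl at 45.1 against 27.5 CPM, whereas Ctsz stood at 260 against 384 CPM. Of 17 glycolysis and hypoxia genes compared, 13 were below 0 and none passed 2-fold (median -0.28), where 2393 of all genes were below 0: Gapdh stood at 534 against 743 CPM and Pgk1 at 96.6 against 154 CPM. Of 15 immediate early genes, which also respond to tissue dissociation, 13 were above 0 and none passed 2-fold (median 0.26, and 0.16 at matched depth). Nr4a2 stood at 478 against 311 CPM and Fos at 2897 against 2423 CPM.

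Most transcription factors of the LC lineage differed little. Of 17 compared, 13 were lower with Cd207 at 0 and 1, Zfp366, passed 2-fold (median -0.15), beside 2393 of all 6403 genes below 0 and 0.375% 2-fold lower. Irf4 stood at 108 against 138 CPM and Bhlhe40 at 127 against 174 CPM. In the TGF-beta pathway 13 genes were compared, none passed 2-fold and the median was -0.00. Tgfbr2, the type II receptor, stood at 92.7 against 59.1 CPM, the receptor Tgfbr1 at 166 against 187 CPM, and the inhibitor Smad7 at 217 against 205 CPM.

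Of 11 maturation and migration genes compared, none was 2-fold higher and 2 were 2-fold lower, beside 0.375% of all genes. These were the chemokine Ccl17 (2.46 against 20.9 CPM) and the signalling adaptor Traf1 (17.5 against 48.1 CPM). Both reached the 20 CPM minimum only in the contrast, so they were compared only because they were high there. The co-stimulatory gene Cd86 stood at 4041 and 3918 CPM and Cd80 at 278 and 316 CPM. None of 11 inflammatory mediators passed 2-fold: Il1b stood at 705 and 655 CPM, Tnf at 265 and 285 CPM, and Cxcl2, a neutrophil chemoattractant, at 1050 against 1452 CPM. Of the interferon response genes only 4 of 18 were abundant enough to compare, and Isg15 stood at 20.9 and 16.7 CPM.

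The same classes were then set side by side in the microneedle library, whose cells took no part in choosing the genes. There 205 gated cells had Cd207 at 0 and 3526 held 5 or more UMIs, with medians of 14253 and 18659 UMIs. Of 6589 genes compared, 16 were 2-fold higher (0.243%) and 10 lower (0.152%), in all 0.395%. In 205 cells of each class matched in depth 31 were higher and 19 lower. All 12 genes named as higher in croton oil had a log2 difference above 0 here and 10 of the 12 named as lower had one below 0, beside 58.3% of the genes compared in both libraries with the same sign. Ifitm1, C1qb, Gm56663 and Bcl2a1a were under 20 CPM in both microneedle classes and so are not in that 58.3%. The counting intervals of the 2 classes overlapped for Gm56663, Rgcc, Bcl2a1a, Bcl2, Clec4n and Capg.

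C1qc stood at 86.5 CPM (76.6 to 97.4) with Cd207 at 0 and 29.7 CPM (28.5 to 31) in the microneedle contrast, C1qa at 845 against 430 CPM, and C1qb at 17.6 against 6.51 CPM. Tgfbi stood at 374 against 147 CPM. Exoc3l4 (83.1 against 39.1 CPM) and Klrb1b (28.8 against 11.1 CPM) followed. The higher set thus had log2 differences from 0.01 (Rgcc) to 1.40 (C1qc), with a median of 0.82. In 205 microneedle cells of each class matched in depth, C1qc differed by 1.21, and C1qa by 0.86, while Rgcc differed by -0.06.

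Of the lower set 2 genes were not lower in microneedle cells. Spp1 stood at 44.5 against 72.8 CPM in microneedle cells and Ccnd1 at 44.5 against 100.4 CPM, while Capg stood at 66.5 against 61.6 CPM and Clec4n at 55.8 against 51.8 CPM. The median of the 12 was -0.37. At matched depth Clec7a (0.11), Bcl2 (0.58), Bcl2a1a (0.03), Clec4n (0.31) and Capg (0.19) were above 0 in this library, Ccnd1 (-0.96) and Nedd4 (-0.94) furthest below it. Mfge8, near 2-fold in croton oil, stood at 1004 against 1235 CPM, and Cst3 at 2773 against 4651 CPM.

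**Figure D4:**
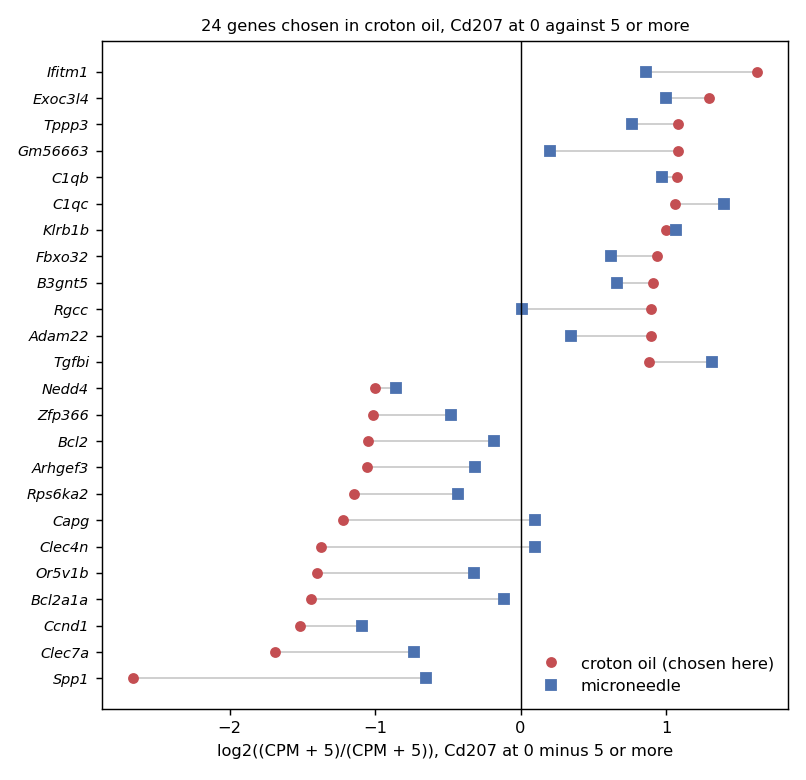
log2((CPM + 5)/(CPM + 5)) between cells with Cd207 at 0 and with 5 or more UMIs for the 24 genes chosen in croton oil (circles), with the same difference in the microneedle library (squares). All 12 higher genes lie right of 0 in both; Capg and Clec4n change side.

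Both croton oil classes were then set beside untreated LCs. In untreated cells with 5 or more Cd207 UMIs C1qa stood at 63.1 CPM and C1qc at 0.730 CPM, so that both croton oil classes lay above them and the class without Cd207 further above. Mfge8 and Spp1 were different: Mfge8 stood at 478 CPM in these untreated cells, below both croton oil classes, and Spp1 at 62.9 CPM, between 33.4 CPM without Cd207 and 238 CPM with it. The untreated library held 128 cells with Cd207 at 0, in which C1qa stood at 46.3 CPM and C1qc at 0. Of 6644 genes compared there, 1.49% were 2-fold higher and 0.0602% lower, in all 1.55%. The croton oil direction was seen in 5 of the 12 genes named as higher and 7 of the 12 named as lower. Among all genes compared in both libraries, 46.8% had the same sign. Ifitm1, C1qb, C1qc, Gm56663, Klrb1b and B3gnt5 were under 20 CPM in both untreated classes and so are not in that 46.8%. Some levels came from few of the 128 cells. Of the lower set, the richest 10 cells held 96.5% of Clec7a, 97.0% of Capg and 98.9% of Bcl2a1a UMIs.

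The cells with Cd207 at 0 also varied among themselves. Clustering them on variable genes outside the rule gave 4 sub-clusters of 428, 382, 315 and 61 cells with median depths of 11194 to 12934 UMIs. Sub-clusters are given by number, since their leading genes are those that made them.

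Sub-cluster 1 was led by Cxcl1 (174 CPM against 57.9 CPM in the rest), Il10 (50.1 against 17.7 CPM), Mgl2 (433 against 195 CPM) and Tnf (414 against 190 CPM), genes of inflammatory signalling and a lectin. Sub-cluster 2 was led by Rps6ka2 (213 against 89.0 CPM), Prkce (73.6 against 31.3 CPM) and Scin (273 against 125 CPM), a pair of kinases and an actin-severing protein. Sub-cluster 3 was led by Mrc1 (148 against 24.5 CPM) and held C1qb at 179 against 57.6 CPM, C1qc at 378 against 199 CPM and Pf4 at 22.1 against 1.75 CPM, all on the macrophage list, beside the heat-shock gene Hspa1a at 492 against 158 CPM. C1qb (213 CPM), C1qc (428 CPM) and Hspa1a (973 CPM) were higher still in sub-cluster 4, where Pf4 was at 0. In sub-cluster 3 Cd163 was at 0 and Lyz2 at 1.33 CPM. Sub-cluster 4, the smallest, was led by Hsph1 (310 against 40.5 CPM) and Ccl3 (145 against 18.7 CPM), with Cdh1 at 690 against 250 CPM and H2-M2 at 1098 against 334 CPM.

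Cells with any UMI of Mrc1, Pf4 or Dab2 were 17.9% (15.7 to 20.2) of those with Cd207 at 0 and 14.5% (12.9 to 16.2) of the contrast. Without all such cells 9 genes were 2-fold higher and 30 lower. C1qa was present in all 4 sub-clusters, from 1459 to 2661 CPM, so it was not limited to sub-cluster 3. Epcam lay between 927 and 1533 CPM and Mfge8 between 1116 and 2065 CPM.

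**Figure D5:**
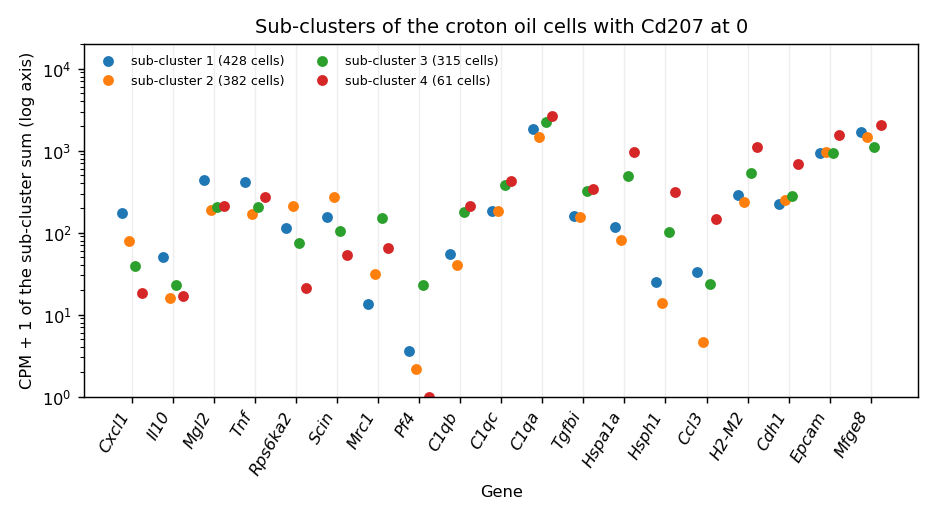
Level (CPM + 1 of the summed cells, log axis) of 19 genes in the 4 sub-clusters of the croton oil cells with Cd207 at 0. Mrc1, Pf4, C1qb and Hspa1a differ widely between sub-clusters, whereas C1qa and Epcam lie within a narrow range.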

How the data were processed

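The deposited values were whole-number UMI counts per gene and cell from Chromium 3' libraries, per the labels, written by Cell Ranger 8.0.0 per the file headers, with GRCm39 given in the submitters' processing notes. A 3' count measures transcript ends, and free RNA can enter any droplet. Of 34289 features, 33767 had identifiers in GENCODE M39. Shares were cell counts; levels were UMIs summed over cells and scaled to CPM. Changes were log2 with a pseudocount of 5 CPM for genes with at least 20 CPM in either class, called at 2-fold. The genes of the rule were left out. Named genes were the 12 highest and 12 lowest log2 changes with at least 50 CPM in either class, plus members of gene lists. Fcgr2b was in neither set and was added separately. The members and lists were chosen with earlier results of these data known. Keratinocyte-like cells held at least 2% keratin UMIs and under 1% class II UMIs. Cells were thinned by sampling UMIs without replacement. Sub-clusters came from 2000 variable genes, 20 principal components, 15 neighbours and Leiden resolution 0.5 (scanpy 1.11.5, leidenalg 0.10.2). TMM factors came from edgeR 4.0.16, used for scaling only. The contrast was tested on simulated data. The depth per library was 117178809 to 127666928 UMIs, and no test was possible with 1 library per group.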

Additional observations from a re-analysis of the deposited data

Results flagged for a closer look

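In 10 gene lists the median difference of cells with Cd207 at 0 had one sign after croton oil and the other after microneedles. In 5 of them both libraries had at least 5 genes compared and a median at least 0.05 from 0. For these the croton oil and microneedle medians on the log2 scale were -0.23 and 0.06 for C-type lectins, -0.14 and 0.20 for MHC class I, -0.1 and 0.12 for inflammatory mediators, 0.26 and -0.10 for immediate early genes, and -0.28 and 0.07 for glycolysis and hypoxia. The difference between the libraries was not tested.

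Among the 128 untreated cells with Cd207 at 0 some genes were far above their levels in other untreated LCs. Ccl17, a chemokine of dendritic cells, stood at 1225 CPM, all of it in 6 cells, against 0.323 CPM in untreated cells with 5 or more Cd207 UMIs. Clec7a stood at 529.7 CPM against 42.8 CPM, Srgn at 459.9 CPM against 11.6 CPM and Mmp12 at 337 CPM against 5.70 CPM. The 10 richest cells held 96.5% or more of the UMIs of each of these 4 genes.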

How the results depend on the processing

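All 336 values of the 24 named genes under the alternatives kept their direction, and 118 of 120 list medians did. Of the 336 values, 95 moved by more than the counting error or across 2-fold. The genes were the extremes of this contrast and the alternatives reused cells of the same library, so the kept directions support nothing. The 2-fold counts (11 higher, 24 lower) became 7 and 12 with 50 CPM as the minimum, 7 higher with TMM scaling, 7 higher at matched depth, 6 higher with the gate at 12000 UMIs, 1 and 6 against all cells with Cd207 at 1 or more, and 59 and 83 at 1.5-fold. In the main contrast the classes of Cd207 at 0 and at 5 or more were not matched in depth, and the cause of these shifts was not tested. The macrophage median (0.71) was 0.64 with TMM scaling, 0.43 at matched depth, 0.39 against Cd207 at 1 or more, 0.60 at 12000 UMIs and 0.61 with classes after thinning. The LC identity median was -0.21 with TMM scaling, -0.082 with cells weighted equally, 0.0074 at matched depth, -0.20 without cycling cells and 0.066 with classes after thinning. Class II genes gave -0.24 at 50 CPM, -0.39 with TMM scaling and -0.19 against Cd207 at 1 or more. Lysosomal genes gave 0.13 at 50 CPM and with TMM scaling, 0.15 at matched depth, 0.11 against Cd207 at 1 or more and 0.11 at 12000 UMIs. Immediate early genes gave 0.18 with TMM scaling and with classes after thinning, 0.16 at matched depth and against Cd207 at 1 or more, and 0.15 at 12000 UMIs. C-type lectins gave -0.39 at matched depth, -0.40 without cells holding Mrc1, Pf4 or Dab2 and -0.42 with classes after thinning, and LC transcription factors -0.25 without those cells. The croton oil share of 21.7% was 16.1% at 12000 UMIs, 20.2% with class II at 4% or more and 31.1% after thinning. Leiden resolution 1 gave 10 sub-clusters. Leaving out cells with Mrc1, Pf4 or Dab2, heat-shock cells or shared barcodes, classing after thinning and matching the microneedle cells were chosen after seeing the data. No paired analysis was possible because each group had 1 library and no test was made.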
